A study of Mus musculus with 2 samples.

Results

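The cells described here are the C1q macrophages of the fracture callus, the repair tissue around a healing femur. They were chosen by their own counts. A barcode belonged to them if it held at least 10 UMIs of C1qa, C1qb and C1qc together per 10000 of its UMIs, fewer than 100 of Col2a1 per 10000, at least 1 UMI of Csf1r, and fewer than 3 UMIs of Ocstamp, Dcstamp, Atp6v0d2 and Calcr together. A UMI (unique molecular identifier) stands for 1 captured RNA molecule. The rule was applied to each library separately, among barcodes with at least 200 genes and at most 20% mitochondrial UMIs. It found 699 of 13460 barcodes in library MGJ (5.19%, exact Clopper-Pearson 95% interval 4.82 to 5.58%) and 26 of 7806 in library MGJ2 (0.333%, interval 0.218 to 0.488%), 725 of 21266 in all. Everything said of MGJ2 rests on these 26 cells.

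The study followed femoral fracture healing in wild-type C57BL/6J mice, 12-week-old males with a transverse mid-femur fracture held by a needle in the marrow cavity. No transgene or agent was used in these animals. Calluses from 5 mice at 10 days and 5 mice at 20 days after fracture were digested with enzymes and captured with 10x Genomics 3′ chemistry. The labels give neither library a day, and barcodes do not tell mice apart, so the libraries are set side by side as single samples with no test between them.

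In the kept barcodes, library MGJ held 133863477 UMIs and library MGJ2 60719816, and the C1q macrophages held 7333215 and 313171 of them. Their median depth was 9161 UMIs and 2474 genes per cell in MGJ, and 11749 UMIs and 2953 genes in MGJ2. The libraries shared 15 kept barcodes, and no C1q macrophage barcode of 1 library was a C1q macrophage barcode of the other. Doublet calling marked 9 of the 699 cells and 1 of the 26, at library-wide call rates of 1.03% and 2.86%, below the expected 11.4% and 6.41%, so unmarked doublets may remain. All levels below are summed UMIs per 1000000 UMIs of a set (CPM) with exact Poisson 95% intervals, and ratios carry exact conditional binomial 95% intervals. These intervals cover counting error only, since there is 1 library on each side.

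C1q is the recognition part of the classical complement pathway. It is built from A, B and C chains encoded by C1qa, C1qb and C1qc, and tissue macrophages are its main source in the body. It binds antibody complexes, dying cells and debris, which macrophages then engulf and break down in lysosomes. Such macrophages carry the lipid carrier Apoe, the membrane protein Ms4a7 and the lipid-sensing receptor Trem2, whereas monocytes recruited from blood carry Ly6c2, Ccr2 and Plac8. In a fracture, macrophages clear clot and dying tissue and are a source of factors for cartilage, bone and vessel formation.

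The 3 C1q genes lie next to each other on chromosome 4 of GRCm38, all on the minus strand and all protein-coding. C1qb (ENSMUSG00000036905) runs from 136880129 to 136886187, C1qc (ENSMUSG00000036896) from 136889804 to 136893065 and C1qa (ENSMUSG00000036887) from 136895917 to 136898803. The span is 18675 bases, with 3616 bases between C1qb and C1qc and 2851 between C1qc and C1qa. Promoters are given for the genes that set these cells apart, to put the start regions of C1q chains beside those of Apoe, Ms4a7 and Trem2, which the rule did not use. Each runs from 250 bases before to 50 bases after the RefSeq start site (build GRCm38.p6), and capitals mark GAGGAA or its reverse complement TTCCTC. They are C1qb chr4:136886151-136886450 (minus strand), C1qc chr4:136892865-136893164 (minus), Apoe chr7:19699139-19699438 (minus), Ms4a7 chr19:11336097-11336396 (minus) and Trem2 chr17:48346151-48346450 (plus).
C1qb: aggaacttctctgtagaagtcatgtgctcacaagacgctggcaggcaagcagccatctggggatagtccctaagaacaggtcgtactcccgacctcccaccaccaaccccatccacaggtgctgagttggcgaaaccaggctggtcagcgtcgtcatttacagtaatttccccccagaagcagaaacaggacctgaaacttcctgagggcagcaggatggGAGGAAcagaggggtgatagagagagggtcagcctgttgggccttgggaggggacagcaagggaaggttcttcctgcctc
C1qc: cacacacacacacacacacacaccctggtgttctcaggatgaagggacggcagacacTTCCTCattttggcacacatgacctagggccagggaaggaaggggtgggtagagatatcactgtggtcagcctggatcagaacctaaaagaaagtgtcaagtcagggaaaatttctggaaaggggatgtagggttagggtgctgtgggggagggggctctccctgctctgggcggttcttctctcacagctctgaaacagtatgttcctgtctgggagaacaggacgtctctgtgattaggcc
Apoe: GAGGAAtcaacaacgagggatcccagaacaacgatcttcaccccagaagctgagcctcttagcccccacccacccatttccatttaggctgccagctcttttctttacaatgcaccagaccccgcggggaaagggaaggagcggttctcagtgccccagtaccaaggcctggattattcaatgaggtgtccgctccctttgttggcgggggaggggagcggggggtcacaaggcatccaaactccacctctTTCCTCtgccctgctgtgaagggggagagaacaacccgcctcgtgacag
Ms4a7: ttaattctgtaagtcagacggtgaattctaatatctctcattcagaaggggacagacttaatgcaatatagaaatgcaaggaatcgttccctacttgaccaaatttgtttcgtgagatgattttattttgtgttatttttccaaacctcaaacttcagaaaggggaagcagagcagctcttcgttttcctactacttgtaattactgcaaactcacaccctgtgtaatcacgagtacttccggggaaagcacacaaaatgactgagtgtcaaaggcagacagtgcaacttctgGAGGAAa
Trem2: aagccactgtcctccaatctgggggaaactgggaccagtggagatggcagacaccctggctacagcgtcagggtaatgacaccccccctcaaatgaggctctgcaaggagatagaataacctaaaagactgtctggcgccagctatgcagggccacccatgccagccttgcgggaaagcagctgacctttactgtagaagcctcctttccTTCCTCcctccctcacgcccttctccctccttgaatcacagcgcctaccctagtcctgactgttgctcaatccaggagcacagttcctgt

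GAGGAA, searched on both strands, was present in 5 of these 5 windows and in 28.3% of 32851 RefSeq promoters of the same length. Its letters hold the GGAA core that ETS-family factors such as PU.1 (Spi1) recognise, but the motif was picked after the promoters had been seen, and a match is a description and not a binding site. TGCTGA, part of the element that Maf-family factors recognise, was found in 1 of the 5 (C1qb) and in 19.5% of all promoters. C1qa was not among the promoters used here.

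The label was first checked against its markers. Apoe stood at 16110 CPM (16020 to 16200) in the C1q macrophages of MGJ, 1976 in monocytes low in C1q, 1666 in osteoclasts and 111 in neutrophils. In MGJ2 the same 4 levels were 8005, 1739, 271 and 29.3 CPM. The monocytes (1214 barcodes in MGJ and 1921 in MGJ2) met the same gates with C1q below 10 per 10000 UMIs, S100a8 and S100a9 below 300, and at least 10 of Tyrobp and Fcer1g. The osteoclasts (87 and 48) had at least 3 UMIs of the 4 osteoclast genes of the rule and at least 20 of Acp5 and Ctsk per 10000, and the neutrophils (3688 and 1538) had at least 300 of S100a8 and S100a9 and no Csf1r UMI.

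Ms4a7 was 5.60 times as high in the C1q macrophages as in the monocytes of MGJ (594 against 106 CPM, interval 5.228 to 6.002) and 39.2 times in MGJ2 (757 against 19.3 CPM, interval 33.1 to 46.4). Trem2 was 2.75 times as high in MGJ (365 against 133 CPM) and 10.2 times in MGJ2 (271 against 26.7 CPM). Both genes were thus higher in the C1q macrophages in each library. Adgre1, which encodes F4/80, had ratios of 2.86 and 3.26. The lysosomal marker Cd68 had 1.63 and 2.59, and the high-affinity IgG receptor Fcgr1 had 1.43 and 4.06. Mertk, an engulfment receptor, had 26.1 against 6.61 CPM in MGJ, and 7 UMIs against 0 in the monocytes of MGJ2. Csf1r, the growth factor receptor the rule required, was at 340 against 291 CPM in MGJ and 386 against 399 in MGJ2. The 3 C1q genes are also among the markers, but the rule fixed their direction and they carry no weight in this check. The 7 others, Apoe, Ms4a7, Trem2, Adgre1, Cd68, Fcgr1 and Mertk, were above the monocyte level in both libraries, and the name C1q macrophages was kept.

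**Figure D1:**
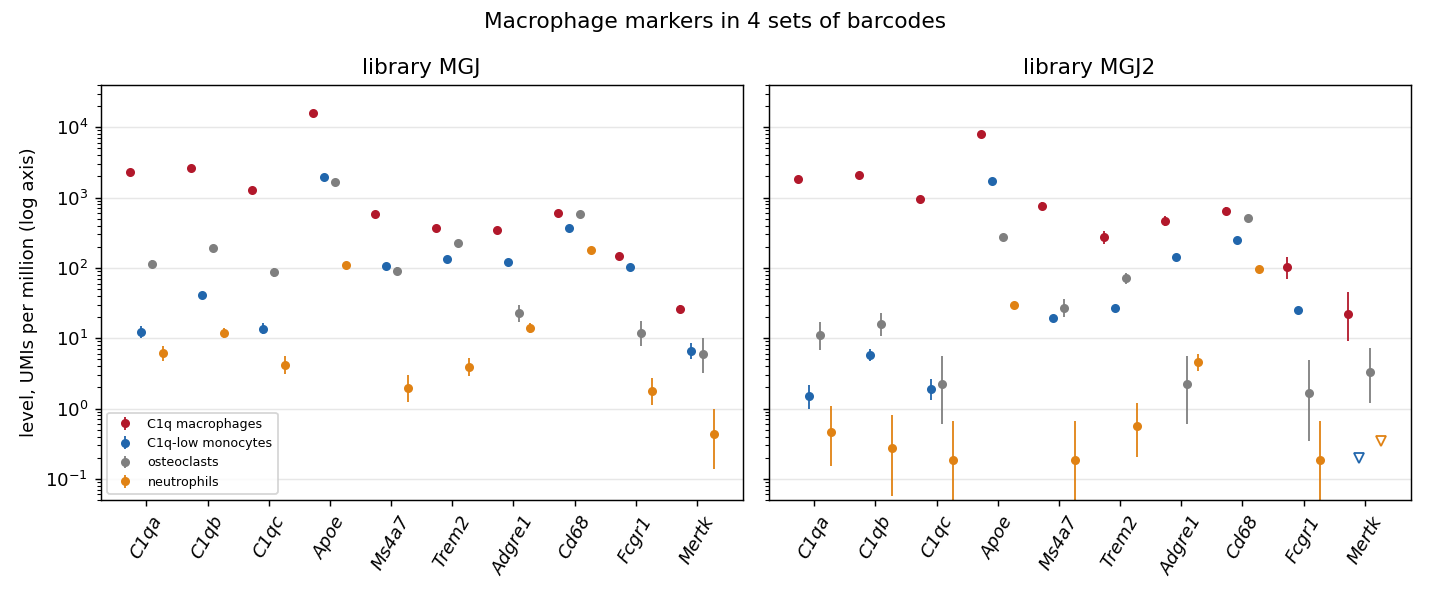
Levels of 10 macrophage markers (CPM, log axis) in C1q macrophages, C1q-low monocytes, osteoclasts and neutrophils of each library, with exact Poisson 95% intervals as bars and open triangles at the upper limit where no UMI was counted. Apoe in the C1q macrophages sits at 16110 in MGJ and 8005 in MGJ2, above the other 3 sets.

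Detection shares gave the same order at equal depth. After thinning each cell to 2000 UMIs, 95.9% of 679 C1q macrophages of MGJ had an Apoe UMI, against 56.0% of the monocytes and 9.90% of the neutrophils (98.3, 67.0 and 16.4% without thinning). For Ms4a7 the thinned shares were 57.6, 13.6 and 0.558% (86.6, 25.04 and 0.515% without), and for Trem2 45.7, 17.9 and 0.761% (79.3, 40.2 and 0.976%). The neutrophils should lack these genes and gauge free RNA. Their median depth was 2087 UMIs, against 6812.5 in the monocytes. Thinning left out 20 C1q macrophages, 94 monocytes and 1718 neutrophils. Mrc1 was seen in 30.8% of the thinned C1q macrophages of MGJ against 5% of the monocytes and 0.406% of the neutrophils (61.9, 10.6 and 0.678% without), and Plac8 in 8.84, 52.3 and 22.7% (16.6, 55.2 and 21.8%). In MGJ2, 23 cells remained, and 91.3% had Apoe, 60.9% Ms4a7 and 39.1% Trem2, against 62.6, 3.24 and 4.63% of the monocytes.

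Each gate of the rule removed a countable part. At least 1 C1q UMI was present in 1989 kept barcodes of MGJ (14.8%) and 137 of MGJ2 (1.76%), and 978 and 36 reached 10 per 10000. Col2a1 then removed 22 and 0, Csf1r 191 and 7, and the osteoclast genes 66 and 3. The barcodes lost to Csf1r in MGJ had a median of 3512 UMIs, against 9161 in those kept to the end. Just below the threshold (8 to 10 C1q UMIs per 10000) lay 27 barcodes of MGJ with Apoe at 3775 and Ms4a7 at 247 CPM, and just above it (10 to 12) lay 23 with 5229 and 298 CPM. In MGJ2 these were 3 barcodes and 1. The threshold did not fall in a gap of the C1q distribution.

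**Figure D2:**
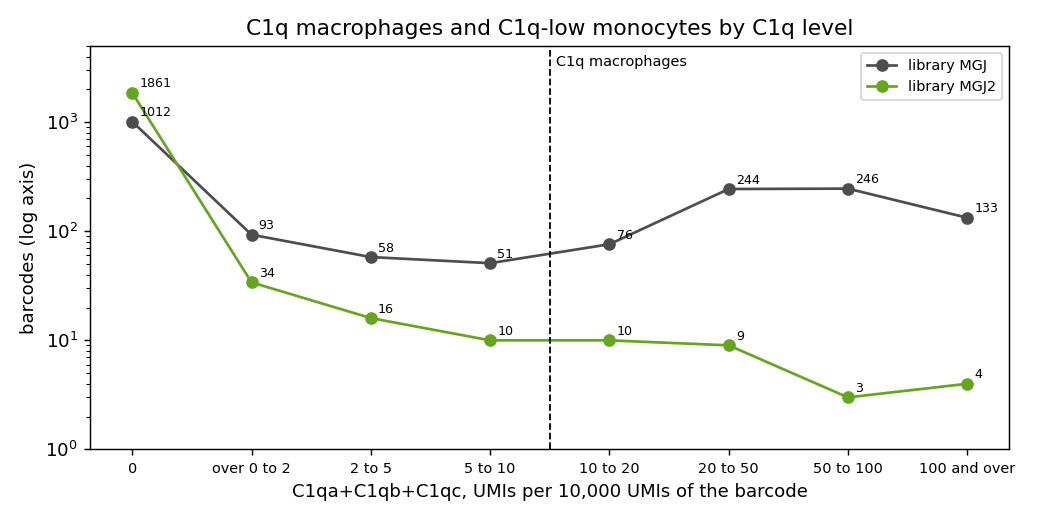
Number of barcodes (log axis) of C1q macrophages and C1q-low monocytes at each C1q level, with the threshold of the rule as a dashed line. In MGJ 51 barcodes lie between 5 and 10 and 76 between 10 and 20, and in MGJ2 10 and 10.

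The levels of C1q itself chose these cells and are given as a description. Per 10000 UMIs, a C1q macrophage of MGJ held a median of 54.65 C1q UMIs (10.03 to 260.3), and one of MGJ2 held 25.05 (10.73 to 131.4). C1qa made up 37.4% of the summed C1q UMIs in MGJ, C1qb 42.0% and C1qc 20.6%. The proportions in MGJ2 were 37.3, 43.3 and 19.5%, close to those of MGJ. All 3 chains were detected in 95.3% of the C1q macrophages of MGJ and in 73.1% of those of MGJ2, against 2.06 and 0.260% of the monocytes. Across the 699 cells of MGJ, C1qa and C1qb had a Spearman correlation of 0.753, a description over cells of 1 library that share their depth scaling.

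Other genes differed between the ends of the C1q range from monocytes to C1q macrophages, though not evenly at each step. From barcodes with no C1q UMI to those with 100 or more per 10000, Apoe went from 1545 to 29630 CPM in MGJ, Ms4a7 from 89.0 to 997, and Trem2 from 112 to 537. The mannose receptor Mrc1 went from 23.0 to 343 CPM, the selenium carrier Selenop from 60.8 to 1323, and the lysosomal protease Ctsb from 1543 to 5411. Levels of these genes were higher in each step above 20 than in the barcodes without C1q. Between steps, Apoe in MGJ was at 5708 CPM at C1q 5 to 10 and 5124 at 10 to 20. In MGJ2, Apoe was at 1684 CPM without C1q, 4700 at 5 to 10 and 2882 in the 10 members at 10 to 20. It was at 17280 in the 4 members at 100 or more. In the opposite direction in MGJ, the monocyte genes Plac8 and Vcan went from 1491 to 26.9 and from 308 to 3.84 CPM. Il1b, the inflammatory cytokine, went from 5723 to 517, with 2625 at C1q 2 to 5 and 4256 at 5 to 10. The monocyte chemoattractant Ccl8 was at 1.85 CPM without C1q and 1279 at 100 or more in MGJ. Within the C1q macrophages alone, C1q and Apoe had a Spearman correlation of 0.511 across 699 cells.

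**Figure D3:**
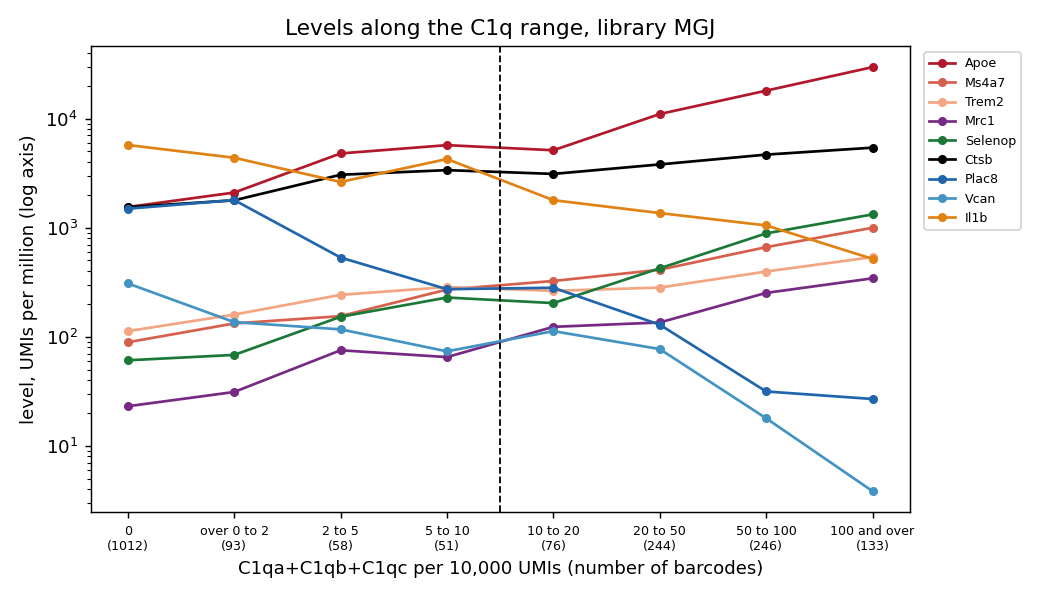
Levels of 9 genes (CPM, log axis) in barcodes of library MGJ ordered by C1q level, with the number of barcodes in parentheses and the threshold dashed. Apoe, Ms4a7, Trem2, Mrc1, Selenop and Ctsb are highest at 100 or more C1q UMIs per 10000, and Plac8, Vcan and Il1b are lowest there.

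All genes were then compared with the monocytes, calling a gene at a ratio of at least 2 or at most 0.5 among those with at least 50 UMIs in a set. In MGJ, 8357 genes were tested, of which 386 (4.62%) were called higher in the C1q macrophages and 335 (4.01%) lower. Without 2 clusters of members led by neutrophil and by fibroblast or tendon genes, described below, the lower count was 569. In MGJ2, 8744 genes were tested and 1478 (16.9%) called higher and 1026 (11.7%) lower, but with 26 cells only 956 (10.9%) and 559 (6.39%) of these had a counting interval that excluded 1. Of genes with at least 100 UMIs in the set where they were higher, in each library, 25 were called higher in both libraries and 130 lower in both. Without that minimum the numbers were 186 and 171, while 3 genes were called higher in MGJ and lower in MGJ2 and 16 the reverse. Against osteoclasts, 1452 (18.7%) of 7780 genes were higher and 1032 (13.3%) lower in MGJ, and 454 (11.1%) and 859 (20.9%) of 4105 in MGJ2.

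The 15 genes with the highest ratio in both libraries were the 3 C1q chains, Selenop, Ms4a7, Apoe, Pltp, Gdf15, Fabp5, Aif1, Pf4, Adgre1, Gpnmb, Cd63 and Itm2b. Selenop was at 721 against 74.5 CPM in MGJ and 1082 against 94.4 in MGJ2. The phospholipid carrier Pltp had ratios of 4.40 and 6.28, the stress cytokine Gdf15 3.88 and 13.3, and Aif1, the calcium-binding protein Iba1, 3.46 and 9.65. The chemokine Pf4 was at 2165 against 644 CPM in MGJ and 444 against 2.79 in MGJ2. Some MGJ2 values came largely from 1 cell, which held 68% of the Fabp5 UMIs and 67% of the Gpnmb UMIs.

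Among the 15 with the lowest ratio were Gpr141, Prtn3, Plac8, Mpo, Klrd1, Ly6c2, Ifitm6, Asns, Chil3, Elane, 1700012B09Rik, Cd177, Hopx and Dmkn. Plac8 was at 94.0 against 1414 CPM in MGJ and 99.0 against 2143 in MGJ2. A single cell held 89% of the Prtn3 and of the Mpo UMIs and 98% of the Elane UMIs among the C1q macrophages of MGJ, so these values rest largely on 1 cell. In MGJ2, with cells weighted equally, the ratios of Prtn3 and Mpo turned to 1.42 and 1.75. The monocyte gates set no limit on genes of progenitors, dendritic cells or NK cells. Dendritic markers summed to 69.6 CPM in the monocytes against 19.6 in the C1q macrophages of MGJ, and 204 against 86.2 in MGJ2. T and NK cell markers were at 14.4 against 6.27 and 48.5 against 67.1. The part of such cells in these ratios was not tested.

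The genes were next read by their roles. Of all genes tested against the monocytes, 4.62% were higher and 4.01% lower in MGJ, and 16.9% and 11.7% in MGJ2. The counts of each list below stand beside these shares, and a count near them is no trait of the list. Of 15 complement genes tested in MGJ, 6 were higher and 0 lower: the 3 C1q chains, C4b, Cfp and C3ar1. Properdin (Cfp), which stabilises the alternative pathway, was at 426 against 192 CPM in MGJ and 297 against 78.8 in MGJ2, and the receptor C3ar1 at 301 against 104 and 265 against 30.0. C4b was at 9.82 against 4.51 CPM and fell below the call without the 2 clusters. The list's median log2 ratio was 0.83, against 0.06 over all tested genes, but 3 of the called genes were those of the rule. Without the 2 clusters 5 were higher and 2 lower of 14, and the median log2 ratio was 0.142. In MGJ2, 7 of 12 were higher, 6 with an interval above 1. Vsig4, a complement receptor of resident macrophages, had no UMI in the C1q macrophages of either library (upper limits 0.503 CPM in MGJ and 11.8 in MGJ2).

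Lipid handling genes were higher in 5 of 22 tested in MGJ, with 0 lower: Apoe, Fabp4, Fabp5, Nr1h3 and Pltp. Fabp5, a fatty acid carrier, was at 3574 against 945 CPM in MGJ and 827 against 91.1 in MGJ2, and Nr1h3, the oxysterol receptor LXR alpha, at 59.9 against 21.7 and 121 against 27.9. The ratio of Fabp4 was 2.09 in MGJ and 0.523 in MGJ2. Fabp4 fell under the fold in 4 other settings in MGJ. The cholesterol exporter Abca1 was at 831 against 425 CPM in MGJ, not called. Without clusters 7 and 9 the count was 8 of 22, with Abca1, Abcg1 and Mylip added. In MGJ2, 9 of 23 were higher and 1 lower. The lipase Lpl was among the higher, at 284 against 16.6 CPM, but was not called in MGJ, at 42.1 CPM. In MGJ, Lpl was seen in 5.45% of the thinned C1q macrophages and 28.7% of the osteoclasts (12.7 and 83.9% without thinning).

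Trem2 and lipid-associated genes gave 4 higher and 1 lower of 11 in MGJ, and 7 and 1 of 11 in MGJ2. The glycoprotein Gpnmb was at 655 against 233 CPM in MGJ, and the lysosomal tetraspanin Cd63 at 1369 against 489. Axl, an engulfment receptor, was at 25.1 against 8.49 CPM in MGJ and 224 against 24.8 in MGJ2. Spp1, which encodes osteopontin, was at 3453 against 3497 CPM in MGJ. Its higher call in MGJ2 was lost in 4 other settings, among them leaving out the deepest member. Cst7 was the gene called lower, in MGJ2 on 1 UMI with an interval that included 1. Against the osteoclasts of MGJ, which also carry Gpnmb and Cd63, 0 of 11 were higher and 2 lower, beside 18.7% and 13.3% of all genes. Against those of MGJ2, 3 of 9 were higher and 0 lower, beside 11.1% and 20.9% of all genes.

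Resident and scavenger genes had the highest median of the lists in MGJ, at log2 2.26 (1.9 without clusters 7 and 9). There 9 of 11 tested were called higher and 0 lower. In MGJ2 their median was 1.68, below the 2.01 of the Trem2 and lipid-associated genes. Mrc1 was at 212 against 28.6 CPM in MGJ and 256 against 15.5 in MGJ2, and the scavenger receptor Stab1 at 154 against 42.9 and 179 against 56.0. Folr2, a folate receptor, was at 31.1 against 3.25 CPM in MGJ, and Gas6, a ligand of Axl and Mertk, at 48.8 against 7.03. Some other genes of the list were at or near 0: Timd4 and Cd209f had no UMI in either library, Lyve1 had 4 in MGJ and Cd163 2. In MGJ2, 5 of 7 were higher and 1 lower, F13a1.

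Efferocytosis genes gave 5 higher and 0 lower of 14 in MGJ (Mertk, Axl, Gas6, Stab1 and Itgb5) and 6 and 2 of 12 in MGJ2, where the 2 lower had intervals that included 1. Lysosome genes were higher in 11 of 28 in MGJ and 13 of 28 in MGJ2, with 0 lower. The proteases Ctsb, Ctsd and Ctsl were at 4314 against 1736, 2846 against 1299 and 3038 against 1231 CPM in MGJ. Legumain (Lgmn) was at 1631 against 505 CPM there, and its ratio was 2.43 in MGJ2. Gaa, at 2.02 in MGJ, was at the edge of the call. The summed level of the list was 29950 CPM in the C1q macrophages of MGJ, 15520 in the monocytes and 14550 in the osteoclasts.

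Of 11 iron and heme genes, 4 were higher and 0 lower in MGJ, and 5 and 0 in MGJ2. The iron exporter Slc40a1 was at 16.8 against 4.19 CPM in MGJ, below the 70.2 of the neutrophils, and the adhesion molecule Vcam1 at 221 against 30.4 (271 against 5.05 in MGJ2). The heme-degrading enzyme Hmox1 was not called, at 3065 against 4382 CPM in MGJ. Spic, which drives red pulp macrophages, was at 73.0 against 31.2 CPM in MGJ and 38.3 against 36.6 in MGJ2.

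MHC class II genes had 0 higher and 1 lower (Cd80) of 9 in MGJ, and 3 and 1 of 11 in MGJ2. H2-Aa was at 1815 against 1264 CPM in MGJ and 5815 against 2559 in MGJ2. The MGJ2 call was lost with C1q at least 20 (ratio 1.87). There H2-Aa was at 11000 CPM in the 10 barcodes just outside the rule at C1q 5 to 10, 8538 in the 10 members at 10 to 20, and 1247, below the monocyte level, in the 4 at 100 or more. Of 6 Fc receptor genes, 1 was higher in MGJ (Fcgrt, 39.5 against 11.4 CPM) and 2 in MGJ2. The monocyte list went the other way, with 11 of 16 lower and 0 higher in MGJ, median log2 -1.98, and 14 of 16 lower in MGJ2. Ly6c2 was at 38.3 against 517 CPM in MGJ, Vcan at 47.3 against 268, and the coagulation factor F10 at 127 against 615. Ccr2, lower at 21.6 against 78.4 CPM in MGJ, was at 112 against 128 in MGJ2.

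Among chemokines, 7 of 16 were higher and 2 lower in MGJ. Ccl8 was at 462 against 3.67 CPM, Ccl12 at 43.2 against 3.56, and Ccl7 at 338 against 144. Ccl3 and Ccl4 were lower, at 476 against 1765 and 390 against 1057, and Ccl2, at 485 CPM, was not called. Ccl8 was seen in 12.7% of the thinned C1q macrophages of MGJ (17.7% without thinning). Its level was 1785 CPM in cluster 3, described below, and it was not called in MGJ2. Cxcl12, called higher, had a ratio of 0.198 without the 2 clusters. In MGJ2, 4 of 11 were higher and 1 lower, and 94% of the Ccl4 UMIs came from 1 cell. Inflammatory genes gave 1 higher and 4 lower of 12 in MGJ. The anti-inflammatory cytokine Il10 was at 340 against 164 CPM in MGJ and 1102 against 179 in MGJ2, and Il1b at 1150 against 5348 and 1067 against 3651. In MGJ2 2 of 10 were higher and 3 lower.

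Growth factors for bone and vessels were higher in 5 and lower in 3 of 14 in MGJ. Pdgfa and Pdgfb, ligands for mesenchymal cells, were at 214 against 43.3 and 50.05 against 12.6 CPM in MGJ, and both were higher in MGJ2 too (243 against 29.5 and 115 against 38.5). Igf1, a growth factor for bone, was at 96.5 against 20.1 CPM, a ratio of 4.80 that was 2.20 without clusters 7 and 9 described below. Its level in cluster 9 was 879 CPM. Hbegf was at 76.5 against 32.6 CPM, and Vegfa, the vessel growth factor, at 348 against 194. Bmp2, Ereg and Csf1 were the 3 lower. In MGJ2, 3 of 10 were higher and 4 lower, 3 of these with an interval below 1. The 3 higher included Spp1, whose call was lost in 4 other settings.

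Transcription factors gave 7 higher and 1 lower of 18 in MGJ. In MGJ2 they gave 4 and 3 of 18, near the shares of all genes there (16.9% and 11.7%). Maf and Cebpa were higher in both libraries, at 66.3 against 31.9 and 59.6 against 25.5 CPM in MGJ, while Spi1, which encodes PU.1, was at 398 against 410. Irf8 (93.0 against 46.4 CPM) and Tfec (27.0 against 54.6) were at the edge of the call. Interferon response genes gave 0 higher and 1 lower (Ifitm3) of 9 in MGJ and 6 and 1 of 11 in MGJ2, where 4 of the 6 had an interval above 1 and 1 cell held 76% of the Ifit1 UMIs. Cell cycle genes gave 0 higher and 4 lower of 11 in MGJ and 4 and 1 of 10 in MGJ2. Each of the 4 lower calls in MGJ (Top2a, Pclaf, Rrm2 and Tyms) was lost in at least 1 other setting. In MGJ2, Tyms turned to 0.375 and Rrm2 to 1.36 with no osteoclast UMI, and the lower call had an interval that included 1. Matrix and protease genes gave 1 higher (Timp2, a protease inhibitor, 459 against 144 CPM) and 1 lower of 14 in MGJ (1 and 6 without the 2 clusters) and 6 and 3 of 12 in MGJ2. Osteoclast genes gave 2 higher and 0 lower of 7 in MGJ, and 3 and 0 of 7 in MGJ2 (2 with an interval above 1), although the rule limited 4 of them.

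The mechanosensitive channel Piezo1, the subject of the study, was at 83.5 CPM (77.0 to 90.3) in the C1q macrophages of MGJ, 65.4 in the monocytes, 94.3 in the osteoclasts and 19.0 in the neutrophils, and at 140, 74.4, 124 and 12.7 CPM in MGJ2. Its ratio to the monocytes was 1.27 in MGJ (1.14 to 1.43) and 1.89 in MGJ2 (1.36 to 2.55), under the call in both. Against the osteoclasts the intervals were 0.755 to 1.04 and 0.802 to 1.57, which include 1. After thinning, 16.8% of the C1q macrophages of MGJ had a Piezo1 UMI, against 13.2% of the monocytes and 2.69% of the neutrophils (52.4, 34.7 and 5.07% without thinning). Of 2 mechanosensing genes tested, 0 were called in MGJ and 1 in MGJ2, Trpv4 on 3 UMIs, with an interval that included 1.

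Osteoclasts arise from the same myeloid lineage and were the second set of comparison. Apoe was 9.67 times as high in the C1q macrophages as in the osteoclasts of MGJ and 29.5 times in MGJ2, Ms4a7 6.58 and 28.1 times, and Trem2 1.63 and 3.80 times. Ctsb was 2.88 and 5.40 times as high. For the shared genes Gpnmb and Cd63 the ratios were 1.06 (0.996 to 1.13) and 1.10 in MGJ, and 4.24 and 0.991 in MGJ2. The Gpnmb level of the C1q macrophages of MGJ2 came largely from 1 cell, as given above. MHC class II genes were higher in 9 of 9 tested in MGJ and 5 of 5 in MGJ2, beside 18.7% and 11.1% of all genes tested against osteoclasts. Cell cycle genes were lower in 11 of 11 and 1 of 8, beside 13.3% and 20.9%. Complement was higher in 13 of 15 and 8 of 8, counts that include the 3 C1q genes of the rule.

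**Figure D4:**
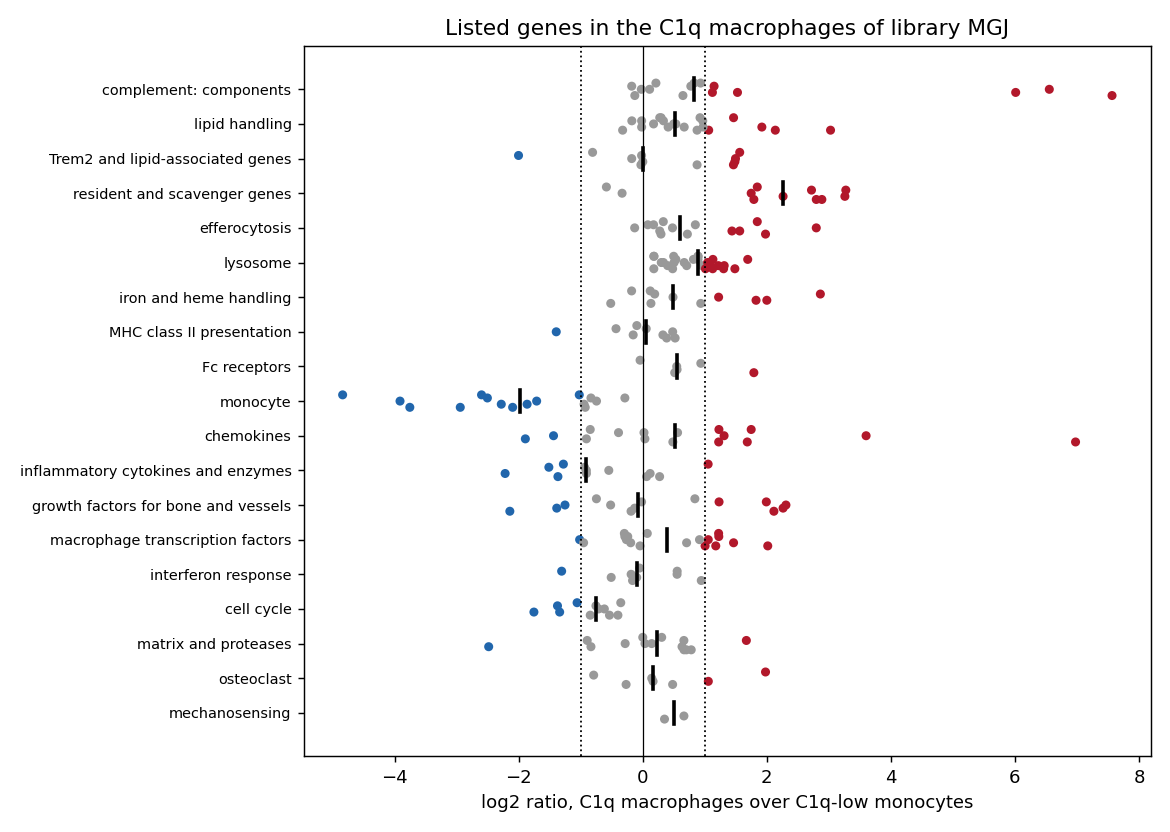
Log2 ratio of C1q macrophages to C1q-low monocytes in library MGJ for the tested genes of each list, with red and blue points past a fold of 2, black bars at list medians and dotted lines at the fold. Resident and scavenger genes have a median of 2.26 and monocyte genes one of -1.98.

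RNA of other cells was measured with the same lists. Neutrophil markers gave 4 higher and 0 lower of 7 in MGJ, at a summed 2786 CPM against 2062 in the monocytes and 236800 in the neutrophils, and 0 higher and 3 lower of 6 once the 2 clusters were left out (682 CPM). Fibroblast and osteoblast markers gave 0 and 0 of 7, at 3099 against 2075 CPM, and 6 lower without the clusters (415 CPM). Chondrocyte markers gave 0 and 0 of 9, at 911 against 1145 CPM. Endothelial markers gave 0 and 1 of 2, B cell markers 0 and 1 of 3, T and NK cell markers 0 and 1 of 1, erythroid markers 0 and 4 of 4 and dendritic markers 0 and 2 of 2. In MGJ2 the neutrophil list gave 0 higher and 4 lower of 8, chondrocytes 0 and 0 of 4, fibroblasts and osteoblasts 1 and 0 of 3, endothelium 0 and 2 of 2, B cells 0 and 2 of 2, T and NK cells 1 and 0 of 4, erythroid cells 0 tested and dendritic cells 0 and 2 of 3. With an interval that excluded 1, the MGJ2 counts became 0 lower for endothelium and for B cells, 0 higher for fibroblasts and osteoblasts, and 3 lower for neutrophils. The part of these RNAs in the levels above was not tested.

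Between the libraries, the C1q macrophages were set side by side with no test. Saa3 (1336 against 6.39 CPM), Arg1 (556 against 0), Ccl8 (462 against 9.58) and Hp (150 against 3.19) were among the 10 genes most in favour of MGJ. The other 6 were Col1a2, Col1a1, Col3a1, Bgn, Sparc and Dcn, matrix genes. Col1a1, Col1a2 and Col3a1 were at 11320, 11880 and 13040 CPM in the 19 cells of cluster 9 described below, which held 7 of the 9 doublet calls, and at 54.6 to 171 CPM in the other clusters. Dcn was at 1958 CPM in cluster 9 and Hp at 1195, while Saa3 and Arg1 were highest in cluster 5 and Ccl8 in cluster 3. The 3 collagens stood at 572 to 649 CPM in the neutrophils of MGJ. Those most in favour of MGJ2 were Axl, Cd83, Lpl, Lyz1, Ccnd1, H2-Q6, Pgf, Gm42418, Lars2 and Ccr2. Gm42418 and Lars2 were higher in the monocytes and neutrophils of MGJ2 than of MGJ too. Apoe was at 16110 CPM in MGJ and 8005 in MGJ2, and the MHC class II list summed to 9396 and 26980. Which day each library holds, and whether these differences follow the day, the mice or the library, cannot be told apart.

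The 699 cells of MGJ fell into 9 clusters, which were numbered by size and not named. The genes below helped to make them and are a description. The number of clusters was 5 at resolution 0.3 and 10 at 0.8, with most cells of clusters 2, 3, 5 and 6 in 1 cluster of 403 at 0.3, and the 26 cells of MGJ2 were not clustered. Cluster 1 (175 cells) was led by Ramp3, Ly6i, Ifitm1, Gpr171 and Il1b, with the class II list at 27330 CPM and Apoe at 6803. The cartilage collagen Col10a1 was also among its 10 leading genes, at 469 CPM against 93.6 in the other cells. Cluster 2 (163 cells) had no gene above 2.22 times the other cells, the highest being Ap5m1, Atad2b, Cytip, Gpalpp1 and Rrp1b. Cluster 3 (118 cells) was led by Cd4, Hspa1a, Ccl8, Adcy3 and Fcrls. It held Apoe at 27430 CPM, Mrc1 at 469 and Vcam1 at 622.

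Cluster 4 (65 cells) was led by Oasl1, Tnip3, Ptger4, Ccr2 and Rsad2, with Il10 at 1120 CPM and class II at 21630. Cluster 5 (54 cells) was led by Nos2, Saa3, Mmp8, Arg1 and Ptges, with Arg1 at 2987 and Nos2 at 162 CPM and a low class II sum of 859. Cluster 6 (44 cells) was led by Tifab, Lsmem1, Lpl, Tnfaip8l2 and Rab3il1 and had Apoe at 31900, Trem2 at 816 and a median C1q of 108 per 10000 UMIs, the highest of the 9 on all 3. Cluster 8 (24 cells) had the dividing-cell genes Pclaf, Rrm2, Birc5 and Aurkb among its leading genes, with the cell cycle list at 2923 CPM, and its Hbb-bs was at 1052 CPM. Its erythroid markers summed to 1953 CPM, against 21.1 to 44.7 in the other clusters, its neutrophil markers to 2389, its B cell markers to 115.6 and its T and NK cell markers to 86.7. The part of these RNAs in its levels was not tested.

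Clusters 7 and 9 were led by genes of other cells. Cluster 7 (37 cells) was led by Pglyrp1, Camp, Retnlg, Mrgpra2b and S100a9, with neutrophil markers at 39370 CPM. Cluster 9 (19 cells) was led by Angptl1, Cilp, Thbs4, Tnmd and Cpxm1, with fibroblast and osteoblast markers at 41980 CPM, a median of 24799 UMIs, and 7 of the 9 doublet calls. Leaving both out left 643 cells. The calls of Camp, Ngp and Ltf against the monocytes were lost in that setting, and Retnlg was called lower there (ratio 0.480). Apoe and class II genes had a Spearman correlation of -0.236 over the 699 cells, class II and Il1b one of 0.376, and class II and Fabp5 one of -0.417.

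**Figure D5:**
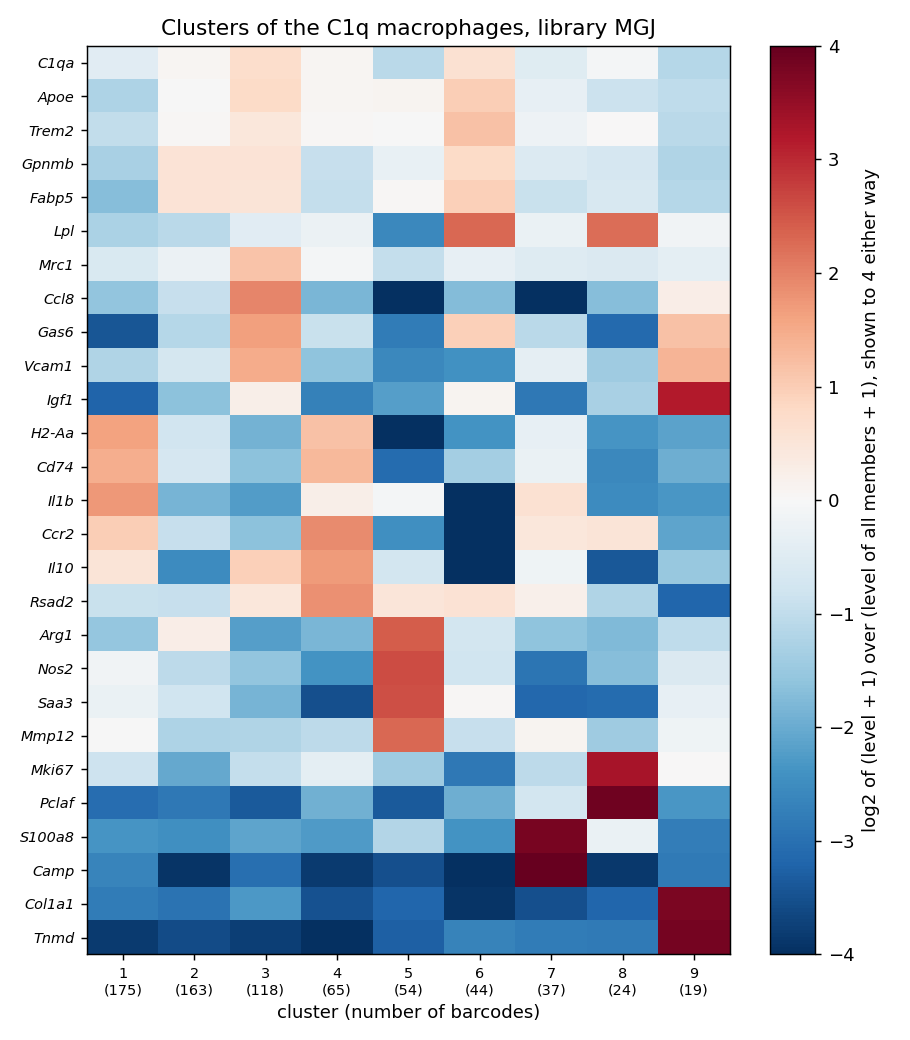
Levels of 27 genes in the 9 clusters of C1q macrophages of MGJ, as log2 of (CPM + 1) over that of all C1q macrophages, shown to 4 either way, with the number of cells in parentheses. H2-Aa and Il1b are highest in cluster 1, Arg1 and Nos2 in cluster 5, S100a8 and Camp in cluster 7, and Col1a1 and Tnmd in cluster 9.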

How the data were processed

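Single-cell libraries of fracture callus were captured with the 10x Genomics Chromium 3′ kit (version 3). The authors deposited 1 filtered matrix of raw UMI counts for each library. The matrix headers name Cell Ranger 4.0.0, and each holds 32285 genes. The study aimed at 5000 cells a library, and the matrices hold 14295 barcodes (MGJ) and 8009 (MGJ2). GRCm38 is named in the submitters' processing notes, and Seurat is listed there without a role. Nothing was normalized before deposit.

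The members, comparison sets, gene lists and alternatives were chosen with earlier results of these data known. UMIs were summed per set and divided by its total. A gene was tested with at least 50 UMIs in 1 of the 2 sets and called at a fold of 2. A count of 0 was put at a floor of 3 UMIs per set, and the gene was left untested where that did not keep the direction. There was no replicate, so no p-value was computed. Genes named were those of the rule and lists, the 15 with the most extreme ratio each way in both libraries (at least 100 UMIs in the set where they were higher), the 10 most different each way between the libraries (at least 100 UMIs in 1 of them) and the 5 leading genes of each cluster. Leading genes had the highest ratio to the other members among genes with a UMI in at least 20% of the cluster's cells, a minimum not fixed with the other rules.

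Doublets were called with Scrublet in scanpy 1.11.5 (0.8% expected per 1000 barcodes) and kept, their removal being an alternative. Clusters used 2000 variable genes, 20 components, 15 neighbours and Leiden resolution 0.5 (igraph 0.11.9, scikit-learn 1.9.0). Thinning to 2000 UMIs was 1 seeded draw. Python 3.11.15, numpy 2.4.6, scipy 1.17.1, pandas 2.3.3 and matplotlib 3.10.9 were used, and scripts were tested on simulated counts. Alternatives were added after seeing the data: leaving out clusters 7 and 9, leaving out the deepest MGJ2 member, requiring an interval that excludes 1, and resolutions 0.3 and 0.8. Clec7a and Mx1 were not found by these symbols. Some genes that these rules select are not reported here.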

Additional observations from a re-analysis of the deposited data

Results flagged for a closer look

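Barcodes outside the comparisons also met the rest of the rule. Among the 835 barcodes of MGJ that the gene or mitochondrial filter had removed, 4 did so, and among the 203 of MGJ2, 1. They were seen only because the filters set them aside and enter no value of the report.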

How the results depend on the processing

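The share of C1q macrophages in MGJ was 5.64% with C1q at least 5, 4.63% with at least 20, 8.22% among barcodes with at least 1000 genes, 4.04% with 2 Csf1r UMIs and 4.32% with no osteoclast UMI. In MGJ2 it was 0.205% with C1q at least 20. Counts against monocytes in MGJ (higher, then lower) were 161 and 186 after thinning, 590 and 547 at a minimum of 20 UMIs, 1474 and 1188 at 1 UMI, and 1078 and 745 at a fold of 1.5, and without clusters 7 and 9 the lower count was 569. Against osteoclasts in MGJ they were 818 and 318 after thinning and 2227 and 1905 at a fold of 1.5, with 1568 lower at 20 UMIs and 2972 at 1 UMI. In MGJ2 against monocytes they were 837 and 600 after thinning, 2517 and 1900 at a fold of 1.5 and 956 and 559 with an interval excluding 1, with 2925 higher at 1 UMI. Against osteoclasts in MGJ2 they were 35 and 92 after thinning, 896 and 1324 at 20 UMIs, 2577 and 1552 at 1 UMI and 809 and 1451 at a fold of 1.5. Apart from leaving out clusters 7 and 9, these settings change how many genes are tested or called by construction. Without those clusters the minimum and the fold were unchanged, and 8252 genes were tested, against 8357 in the main setting. In MGJ, ratios turned for Retnlg (0.683) and Ltf (0.885) with S100a8 and S100a9 below 100, and for Cxcl12 (0.198), Retnlg (0.480) and Ltf (0.810) without clusters 7 and 9. In MGJ2 they turned for Tyms (0.375) with no osteoclast UMI, and for Prtn3 (1.42), Mpo (1.75) and Cst7 (1.40) with cells weighted equally. The cause was not tested.

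Of 108 named genes called in MGJ, 27 dropped under the fold in at least 1 alternative (58 of 1511 values), and 15 of 76 in MGJ2 (22 of 1047). Gaa and Irf8 did so in 7 each. The 26 cells of MGJ2 and the single library on each side set the limits: intervals cover counting error, and a gene of few UMIs there can rest on 1 cell. No paired analysis was possible because the labels give neither library a group or a replicate number. No replicate could be left out, and the share of cells has no value under thinning or equal weighting.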
